A study of Mus musculus with 12 samples.

Results

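The Hox genes and the 3 Cdx genes are described here in mouse epiblast stem cells (EpiSCs), pluripotent cells close to the epiblast of a freshly implanted embryo. Members were all genes whose symbol is Hoxa, Hoxb, Hoxc or Hoxd followed only by digits, together with Cdx1, Cdx2 and Cdx4, provided that an array probe was annotated to that gene alone. This gave 40 of the 19938 genes measured, namely 10 Hoxa, 9 Hoxb, 9 Hoxc and 9 Hoxd genes and the 3 Cdx genes, each with 1 probe. Hoxb8 is not analysed here, because no probe was annotated to it alone. The rule for members used symbols and probe annotation and not measured values, but it was set with earlier results of these data known.

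Hox genes encode homeodomain transcription factors that give cells their position along the head-to-tail axis. They lie in 4 clusters, and genes of the same paralog number in different clusters are related. Genes with low paralog numbers are switched on first in the primitive streak and act furthest towards the head, and those with high numbers follow later and act towards the tail. The Cdx genes encode caudal-type homeodomain factors that bind within the Hox clusters and promote the use of central and posterior Hox genes. Wnt and Fgf signals from the streak promote Cdx and early Hox transcription in the embryo, and retinoic acid activates anterior Hox genes. Polycomb complexes keep the clusters silent in pluripotent cells. Paralogs are grouped below as anterior (1 to 4), central (5 to 8) and posterior (9 to 13).

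The 12 arrays were of EpiSCs with a 129 genetic background, which another label field calls embryonic stem cells, and they fell into 4 groups of 3. Per the labels, the groups were untreated cells, cells given CHIR99021 at 3 µM for 2 h, cells given XAV939 at 2 µM, and cells given both compounds at these doses. The XAV939 exposure is 2 h in the sample labels and 4 h in the series' design text. All groups were kept without serum for 12 h beforehand by the design text, while the growth protocol of every sample names medium with 10% serum. CHIR99021 inhibits the kinase GSK3 and so stabilises β-catenin, and XAV939 inhibits tankyrase and so stabilises Axin, which lowers β-catenin. The labels name neither separate cultures nor a batch for the replicates, so the p-values below rest on a spread between samples that may be technical only.

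Values are log2 signal per probe, and a difference of 1 is a doubling. The level of one probe is not comparable with that of another, so levels are followed across arrays within a gene. The Wnt target Axin2, used to check the labels, had a mean of 5.94 ± 0.15 (SD, n = 3) in untreated cells, 5.72 ± 0.20 with XAV939 and 6.44 ± 0.08 with both compounds. With CHIR99021 it was higher than untreated by 1.06 (limma adjusted p = 4.8e-05). The pluripotency genes Pou5f1 and Sox2 had means of 11.46 and 11.13 in untreated cells, and all 13 EpiSC markers measured lay above background. Array medians lay between 5.22 and 5.27. The SD over all probes of an array ran from 2.14 to 2.21 and was lowest on untreated replicate 3 and XAV939 replicate 2.

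Most Hox and Cdx probes gave signals in the range of genes that EpiSCs are not known to use. A background measure was taken as 4.93, the 95th percentile over 1190 genes for olfactory and vomeronasal receptors, and 41.6% of all genes had a mean at or below it. It is a rough guide, since probes differ in how brightly they bind. Of the 40 members, 6 had a mean over the 12 arrays above it, namely Hoxa13, Hoxb1, Hoxb2, Hoxb3, Hoxb9 and Hoxd3. Hoxa13, Hoxb1 and Hoxb3 were above it on all 12 arrays, and 27 members were above it on no array. When all genes were divided into 10 equal classes by mean, 39 of the 40 members lay in the lower 5 classes, and Hoxb1 was the exception. In bulk cultures, fewer cells with a transcript and less RNA per cell cannot be told apart.

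Members and other genes differed little in their spread within groups, with a median residual SD of 0.115 for members and 0.109 for all genes. The gap between a member's highest and lowest array had a median of 0.37 and ran from 0.23 for Hoxa7 to 0.79 for Hoxb2. It exceeded 0.5 for Cdx2, Cdx4, Hoxa2, Hoxb1, Hoxb2 and Hoxd1. Within groups of 3 arrays, the SD of a member had a median of 0.11 and ran from 0.01 to 0.27.

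**Figure D1:**
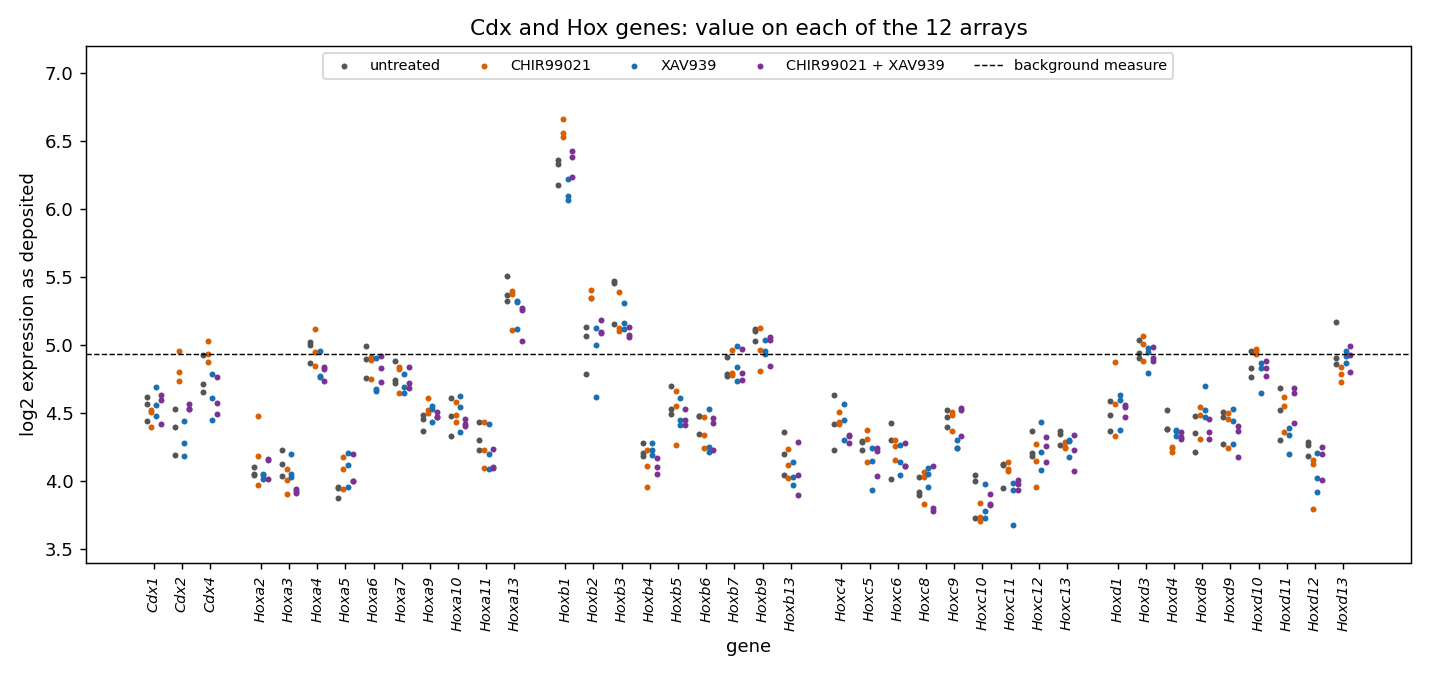
Signal (log2) of each of the 40 Hox and Cdx genes on the 12 arrays, in order of cluster and paralog number, with 1 point per array coloured by group and a dashed line at the background measure of 4.93. Hoxb1, whose points run from 6.07 to 6.66, stands apart from the line, and for most genes the points of the 4 groups are mixed.

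With CHIR99021, Cdx2 was higher than in untreated cells, and it was the 1 of 40 members called in that comparison (limma, Benjamini-Hochberg adjusted p under 0.05 over all genes). Across the array, 0.421% of genes were called there, and 0.256% were called higher. When all 6 arrays with CHIR99021 were set against the 6 without, averaging over the absence and presence of XAV939, Cdx2 and Hoxb1 were called higher, 2 of 40 members. In that comparison 1.59% of all genes were called and 0.777% were called higher. Cdx2 and Hoxb1 were also the 2 members called by limma's F test for any difference among the 4 groups, which called 1.16% of all genes. By unadjusted p under 0.05 the F test picked 5 members, against 16.7% of all genes. No member was called lower with CHIR99021, where 0.166% of all genes were called lower against untreated and 0.818% over all 12 arrays.

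Cdx2 encodes the caudal-type factor that specifies trophectoderm in the blastocyst and, after implantation, posterior axial tissue. Its levels were 4.19, 4.40 and 4.53 on the untreated arrays and 4.80, 4.73 and 4.96 with CHIR99021. They were 4.18, 4.44 and 4.28 with XAV939, and 4.57, 4.53 and 4.53 with both compounds. All 3 CHIR99021 arrays lay above all 9 others, and the arrays with both compounds lay above every XAV939 array but not above every untreated array. The difference between CHIR99021 and untreated was 0.46 (SE 0.09, 95% interval 0.26 to 0.66) in probe signal, with an adjusted p of 0.0461 by limma. The Cdx2 probe was above the background measure on 1 of the 12 arrays, so this is not given as a fold of expression. In the presence of XAV939, both compounds minus XAV939 alone gave 0.24 (0.04 to 0.44), which did not pass (limma adjusted p = 0.429). Adding XAV939 to CHIR99021 gave -0.29 (-0.49 to -0.09, limma adjusted p = 0.304). The test of whether the CHIR99021 change differed with and without XAV939 gave a difference of -0.22 (-0.50 to 0.06), with a limma adjusted p of 0.965. With all 12 arrays the CHIR99021 difference was 0.35 (SE 0.07, limma adjusted p = 0.0127).

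The call for Cdx2 over all 12 arrays was kept in each of the 23 alternatives that tested it, with adjusted p from 0.00315 to 0.0400 by limma. The call against untreated cells alone ended when any 1 of 9 arrays was left out: with untreated replicate 1 or 2 out the limma adjusted p was 0.168 or 0.120, and with CHIR99021 replicate 1, 2 or 3 out it was 0.116, 0.0845 or 0.170. It was 0.0619 without XAV939 replicate 3, and 0.0625, 0.0644 or 0.0660 without replicate 1, 2 or 3 of both compounds.

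Cdx1 and Cdx4, the other members of the family, did not pass the test in any comparison. Cdx1, a direct target of Wnt signals in the embryo, was at 4.56, 4.62 and 4.44 untreated and at 4.52, 4.40 and 4.51 with CHIR99021. Its XAV939 arrays were at 4.48, 4.56 and 4.69, and the arrays with both compounds at 4.42, 4.60 and 4.63. All 4 groups overlapped, and the CHIR99021 difference from untreated was -0.06 (95% interval -0.24 to 0.11, limma adjusted p = 0.850). Cdx4, which acts with Cdx2 in posterior axis growth, was at 4.93, 4.71 and 4.66 untreated, and at 4.93, 4.87 and 5.03 with CHIR99021. With XAV939 it was at 4.79, 4.61 and 4.45, and with both at 4.76, 4.57 and 4.49. The CHIR99021 arrays were the highest but overlapped the untreated ones, and the arrays with both compounds all lay below the CHIR99021 arrays. Cdx4 gave 0.18 (-0.03 to 0.39) for CHIR99021 against untreated, with a limma adjusted p of 0.571. For both compounds against CHIR99021 it gave -0.34 (-0.55 to -0.12), with a limma adjusted p of 0.272.

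Hoxb1, an anterior paralog that sets the identity of a hindbrain segment, was above the background measure on all 12 arrays. Its levels were 6.36, 6.33 and 6.18 untreated, 6.66, 6.56 and 6.53 with CHIR99021, 6.10, 6.22 and 6.07 with XAV939, and 6.43, 6.23 and 6.38 with both. The CHIR99021 arrays lay above all 9 others, and the XAV939 arrays lay below every array with both compounds. The CHIR99021 difference from untreated was 0.29 (SE 0.08, 0.12 to 0.46), a 1.22-fold higher level that did not pass (limma adjusted p = 0.153). With XAV939 present the CHIR99021 difference was 0.22 (0.05 to 0.39, limma adjusted p = 0.381), and the difference between these differences was -0.07 (limma adjusted p = 0.980). The CHIR99021 difference over all 12 arrays was 0.26 (SE 0.06) and passed (limma adjusted p = 0.0315). The XAV939 difference over all 12 arrays was -0.20 (SE 0.06) and did not pass (limma adjusted p = 0.110).

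The Hoxb1 call over all 12 arrays was kept in 13 of 24 alternatives and ended in 11, among them those that left out any 1 of 9 arrays. It was kept without untreated replicate 1, XAV939 replicate 2 or replicate 2 of both compounds, with limma adjusted p of 0.0418, 0.0295 and 0.0283. Its limma adjusted p was 0.0547 or 0.0893 without untreated replicate 2 or 3, and 0.0762, 0.0558 or 0.0503 without CHIR99021 replicate 1, 2 or 3. It was 0.0750 or 0.0781 without XAV939 replicate 1 or 3, and 0.0749 or 0.0728 without replicate 1 or 3 of both compounds, while the difference ran from 0.23 to 0.28 over the 24 alternatives.

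Hoxb2, the neighbour of Hoxb1 and likewise a hindbrain gene, had 5.13, 5.07 and 4.79 in untreated cells and 5.35, 5.41 and 5.35 with CHIR99021. It had 5.12, 4.62 and 4.999 with XAV939, and 5.19, 5.10 and 5.09 with both. As for Cdx2 and Hoxb1, the CHIR99021 arrays were above the 9 others. The difference from untreated was 0.37 (SE 0.11, 0.13 to 0.61), with a limma adjusted p of 0.214. The 12 arrays together gave 0.29 (SE 0.08), with a limma adjusted p of 0.0871. Neither passed. Over its alternatives the second ran from 0.34 without XAV939 replicate 1, the 1 alternative that passed (limma adjusted p = 0.0456), down to 0.16 without untreated replicate 3 and XAV939 replicate 2 together (limma adjusted p = 0.252). With the array SD as a covariate it was 0.17 (limma adjusted p = 0.340).

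Hoxb3, an anterior paralog used in hindbrain and pharyngeal arches, had values of 5.15, 5.45 and 5.47 untreated and 5.39, 5.11 and 5.12 with CHIR99021. It had 5.12, 5.16 and 5.31 with XAV939, and 5.07, 5.13 and 5.06 with both. Here the CHIR99021 group overlapped the untreated one, and the arrays with both compounds lay below all untreated arrays. Both compounds against untreated gave -0.27 (-0.48 to -0.06), which did not pass (limma adjusted p = 0.154).

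**Figure D2:**
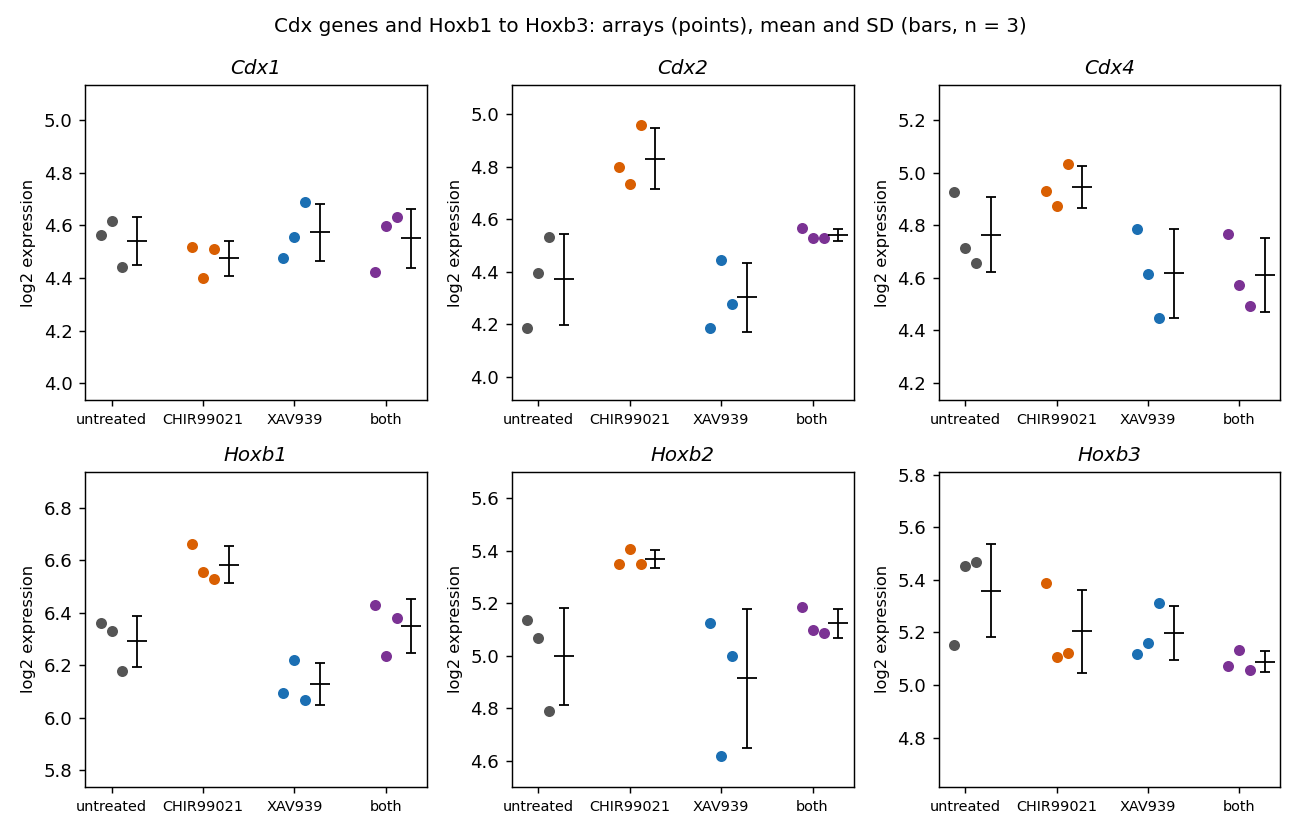
Signal (log2) of Cdx1, Cdx2, Cdx4, Hoxb1, Hoxb2 and Hoxb3 on each of the 12 arrays, in 4 groups of 3, with a bar at each group mean and the SD as error. Each panel has its own range of levels, and for Cdx2, Hoxb1 and Hoxb2 the 3 CHIR99021 points lie above the 9 others, while the groups of Cdx1 overlap.

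The start regions of Cdx2 and Hoxb1 are shown because they are the members called, and that of Cdx4, which did not pass, for comparison with Cdx2. Each line gives the 250 bases before the annotated start of transcription, 5′ to 3′ in the direction of the gene, from RefSeq with the GRCm38.p6 build. Cdx2 is at chr5:147307250-147307499 on the minus strand, Hoxb1 at chr11:96365508-96365757 on the plus strand, and Cdx4 at chrX:103321148-103321397 on the plus strand. Capitals mark matches to the letters ATGCNAAT, an octamer-like motif of the kind that POU factors bind, or TGATNGA, a motif of the kind that PBX and HOX proteins bind together.
Cdx2: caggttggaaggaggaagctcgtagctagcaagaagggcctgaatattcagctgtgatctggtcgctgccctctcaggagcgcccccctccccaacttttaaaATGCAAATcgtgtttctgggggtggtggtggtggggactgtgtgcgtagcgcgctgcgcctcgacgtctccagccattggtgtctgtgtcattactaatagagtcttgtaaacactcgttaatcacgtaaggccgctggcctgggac
Hoxb1: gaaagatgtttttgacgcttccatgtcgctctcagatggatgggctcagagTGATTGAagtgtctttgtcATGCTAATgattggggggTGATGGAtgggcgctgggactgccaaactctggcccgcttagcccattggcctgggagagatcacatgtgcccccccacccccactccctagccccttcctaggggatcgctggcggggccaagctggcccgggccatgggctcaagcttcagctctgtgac
Cdx4: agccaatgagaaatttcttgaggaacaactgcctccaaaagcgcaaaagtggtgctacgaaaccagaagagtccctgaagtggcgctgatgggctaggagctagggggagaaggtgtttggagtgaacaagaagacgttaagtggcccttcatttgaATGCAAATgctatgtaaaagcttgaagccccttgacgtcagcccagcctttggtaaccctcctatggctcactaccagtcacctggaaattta

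Cdx2 and Cdx4 each held 1 match to ATGCNAAT, at 147 to 140 and at 93 to 86 bases before the start. Hoxb1 held 1 match to ATGCNAAT, at 180 to 173 bases before it, between 2 matches to TGATNGA at 199 to 193 and 162 to 156. Promoter windows were found for 23 of the 40 members, 25 windows in all, and were searched on both strands. ATGCNAAT occurred in 3 of these windows, those of Cdx2, Cdx4 and Hoxb1, and in 2.86% of all 32851 promoter windows of the same length. TGATNGA occurred in 5 of the 25 and in 7.46% of all windows. The TCF/LEF letters CTTTGAT or CTTTGAA occurred in the windows of Hoxd8 and Hoxd12, in none of the 3 printed, and in 7.48% of all windows. ATGCNAAT and TGATNGA were chosen after the member sequences had been read, so these counts are a description of the letters and not evidence of binding.

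Among the Hoxa genes, 0 of 10 passed in any of the 8 comparisons, where 0% to 1.59% of all genes passed. Hoxa13, a posterior paralog needed for digits and the genital tract, had values of 5.51, 5.37 and 5.32 untreated, 5.38, 5.11 and 5.40 with CHIR99021, 5.31, 5.32 and 5.12 with XAV939, and 5.03, 5.27 and 5.26 with both. Its lowest 3-array group was that with both compounds, which lay below all untreated arrays but overlapped the other groups. The difference from untreated was -0.21 (-0.42 to -0.0049, limma adjusted p = 0.257), and -0.13 without replicate 1 of both compounds. Hoxa4, an anterior paralog used in neck vertebrae, ran from 4.87 to 5.02 untreated and from 4.84 to 5.12 with CHIR99021. It ran from 4.77 to 4.95 with XAV939 and from 4.73 to 4.84 with both. Hoxa3, needed for thymus and parathyroid, was at 4.04, 4.13 and 4.23 untreated and at 3.92, 3.94 and 3.91 with both compounds, without overlap. That difference was -0.20 (-0.37 to -0.04, limma adjusted p = 0.175).

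In the rest of the Hoxb cluster, Hoxb9 was the other gene whose mean lay above background. Hoxb9, a posterior paralog used in the thoracic skeleton, ran from 5.03 to 5.12 untreated and from 4.81 to 5.12 with CHIR99021. With XAV939 it ran from 4.94 to 5.04, and with both from 4.85 to 5.06. The 4 groups overlapped.

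All 9 Hoxc genes had a mean at or below background. In any comparison 0 of 9 passed, where 0% to 1.59% of all genes did. Hoxc9, a posterior paralog of the thoracic level, and Hoxc4, an anterior one, are given as examples by the rule on probe means. Hoxc9 was at 4.52, 4.47 and 4.40 untreated and at 4.24, 4.24 and 4.30 with XAV939, without overlap, a difference of -0.20 (-0.36 to -0.04, limma adjusted p = 0.355). With both compounds it was at 4.52, 4.53 and 4.33, in the untreated range or close to it. Hoxc4 ran from 4.23 to 4.64 untreated, and the other 3 groups lay within that range. Hoxc11, a posterior paralog, was at 4.12, 4.12 and 3.95 untreated and at 3.98, 3.68 and 3.93 with XAV939, where 1 array overlapped. Its difference was -0.20 (-0.38 to -0.02, limma adjusted p = 0.407), and -0.10 without XAV939 replicate 2.

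Among the Hoxd genes, 0 of 9 passed in any comparison, where 0% to 1.59% of all genes passed. Hoxd3 alone had a mean above background. Hoxd3, an anterior paralog used in the upper neck vertebrae, ran from 4.91 to 5.04 untreated, 4.89 to 5.06 with CHIR99021, 4.80 to 4.98 with XAV939 and 4.88 to 4.99 with both. Its groups overlapped throughout. Hoxd13, the most posterior member of its cluster and a digit gene, was at 4.91, 5.17 and 4.86 untreated and at 4.84, 4.78 and 4.73 with CHIR99021. Those groups did not overlap, with a difference of -0.19 (-0.38 to -0.01, limma adjusted p = 0.439), and -0.10 without untreated replicate 2. Hoxd12, its neighbour, was at 4.26, 4.29 and 4.19 untreated and at 3.80, 4.13 and 4.15 with CHIR99021, a difference of -0.22 (-0.44 to -0.0038, limma adjusted p = 0.474), and -0.11 without CHIR99021 replicate 1. Hoxd11, a forearm gene, was at 4.20, 4.39 and 4.34 with XAV939 and at 4.65, 4.68 and 4.43 with both, a difference of 0.28 (0.05 to 0.50, limma adjusted p = 0.397). Hoxd8, a central paralog, was at 4.48, 4.22 and 4.35 untreated and at 4.47, 4.70 and 4.52 with XAV939, a difference of 0.22 (0.02 to 0.41, limma adjusted p = 0.399).

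For CHIR99021 against untreated, 6 of 40 members had an unadjusted limma p under 0.05, which is 15%, against 10.3% of all genes. All 3 CHIR99021 arrays lay above all 3 untreated arrays for 4 members (Cdx2, Hoxa9, Hoxb1 and Hoxb2) and below them for 3 (Hoxd4, Hoxd12 and Hoxd13). The background shares were 8.09% of genes higher without overlap and 8.25% lower. Hoxa9 and Hoxd4, like Hoxb4 below, are named to complete counts and were chosen after their values were seen. Every member's 95% interval for the difference in probe signal stayed between -0.44 and 0.66, which for members at background does not bound the change of the transcript. With all 12 arrays, 6 members had an unadjusted limma p under 0.05 for CHIR99021, 3 higher and 3 lower, again 15%, against 14% of all genes.

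For XAV939 against untreated, 0 of 40 members were called by limma, as were 0% of all genes. An unadjusted p under 0.05 was found for 3 members, or 7.5%, against 11.2% of all genes. Without overlap between the groups, 0 were higher and 2 lower (Hoxc9 and Hoxd4), against 9.48% and 8.17% of all genes. Of the 8291 genes at or below background, 239 were higher and 1059 lower in this way. Of the 40 differences, 30 were negative and 10 positive, which is 75% negative, against 49.8% of all genes and 66.1% of genes at or below background. With the 6 XAV939 arrays set against the 6 without, 30 were again negative, against 51.1% of all genes and 72.5% of those at or below background. By limma, 0 of 40 were called there, where 0.331% of all genes were. There 5 members had an unadjusted limma p under 0.05, or 12.5% against 16.9% of all genes. All 5 were lower, namely Cdx2, Cdx4, Hoxa4, Hoxb1 and Hoxc11, and of these Hoxb1 alone had a mean above background. At that p, 7.4% of all genes and 11.7% of genes at or below background were lower. Cdx4 gave the difference of greatest size, -0.24 (SE 0.07, limma adjusted p = 0.116).

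For both compounds against untreated, 0 of 40 members were called by limma, where 1.13% of all genes were. An unadjusted p under 0.05 was found for 3 members, or 7.5%, against 18.7% of all genes. Of the 7 members whose groups did not overlap, 1 was higher and 6 were lower with both compounds, against 13% and 12% of all genes. Of the 8291 genes at or below background, 137 were higher and 1602 lower without overlap. For both against XAV939 alone, 0 of 40 were called where 0.236% of all genes were, and 5 had an unadjusted limma p under 0.05, or 12.5% against 9.69%. All 3 arrays with both compounds lay above all XAV939 arrays for 4 members (Cdx2, Hoxb1, Hoxc9 and Hoxd11) and below them for 3 (Hoxa3, Hoxb4 and Hoxd8), against 6.94% and 7.32% of all genes. For both against CHIR99021 alone, 0 of 40 were called where 0.0251% of all genes were, and 4 had an unadjusted limma p under 0.05, or 10% against 11%. These 4 were Cdx2, Cdx4, Hoxb1 and Hoxb2, each lower when XAV939 was added. At that p, 4.3% of all genes and 6.02% of genes at or below background were lower. Of the members whose groups did not overlap there, 1 was higher (Hoxd4) and 8 were lower, against 8.92% and 7.18% of all genes. Of the 8291 genes at or below background, 159 were higher and 936 lower without overlap there. The interaction of the compounds gave 0 of 40 calls by limma and 0% of all genes, and 2 members (Hoxd8 and Hoxd12) had an unadjusted p under 0.05, or 5% against 4.94%. These comparisons share arrays and are not independent of each other.

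**Figure D3:**
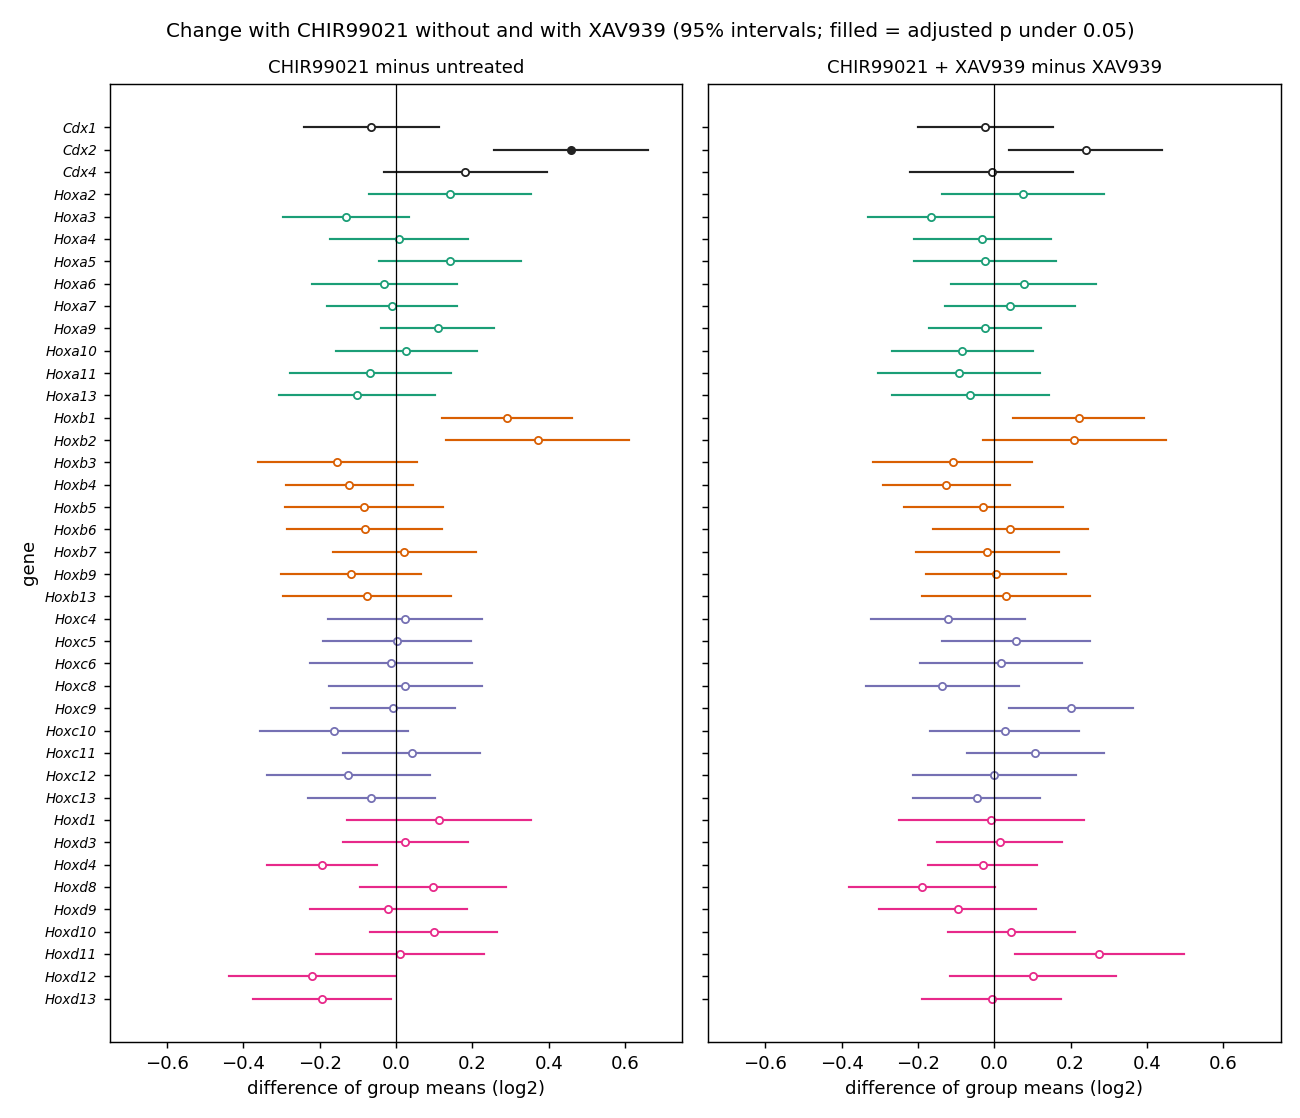
Difference of group means (log2, point with 95% interval) for each of the 40 members, for CHIR99021 minus untreated (left) and both compounds minus XAV939 (right), coloured by cluster, with a filled point for a limma adjusted p under 0.05. Cdx2 on the left (0.46) is the 1 filled point, and most intervals cross 0.

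By cluster, the medians for CHIR99021 against untreated were 0.18 for the 3 Cdx genes, -0.0015 for Hoxa, -0.08 for Hoxb, -0.0076 for Hoxc and 0.01 for Hoxd. The median over all 40 was -0.0092, and that over all genes was -0.0053. Hoxb1 at 0.29 and Hoxb2 at 0.37 thus lay in a cluster in which 6 of 9 differences were negative. Of all genes 51.9% were negative there, and of genes at or below background 62.5%. With XAV939 against untreated, the medians were -0.07 for Cdx, -0.05 for Hoxa, -0.10 for Hoxb, -0.10 for Hoxc and -0.06 for Hoxd.

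By paralog class, the 11 anterior genes had a median of 0.02 for CHIR99021 against untreated, with 7 positive. The 10 central genes had a median of -0.0039 with 5 positive, and the 16 posterior genes one of -0.07 with 5 positive. Negative differences made up 36.4%, 50% and 68.75% of these classes, against 51.9% of all genes and 62.5% of genes at or below background. Over all 12 arrays the CHIR99021 medians were -0.01, 0.0018 and -0.06, and the XAV939 medians were -0.06, -0.04 and -0.05. The anterior class held both the highest Hox difference for CHIR99021 over all 12 arrays, 0.29 for Hoxb2, and the lowest, -0.15 for Hoxa3. Differences of dim genes moved with the treatments across the whole array: the genes at or below background had a median of -0.03 for CHIR99021 over all 12 arrays and -0.05 for XAV939, and -0.08 for both compounds against untreated. The members' median for both against untreated, -0.06, lay between that of the dim genes and that of all genes, -0.0090, and the part of this shift in the members' small negative differences was not tested.

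**Figure D4:**
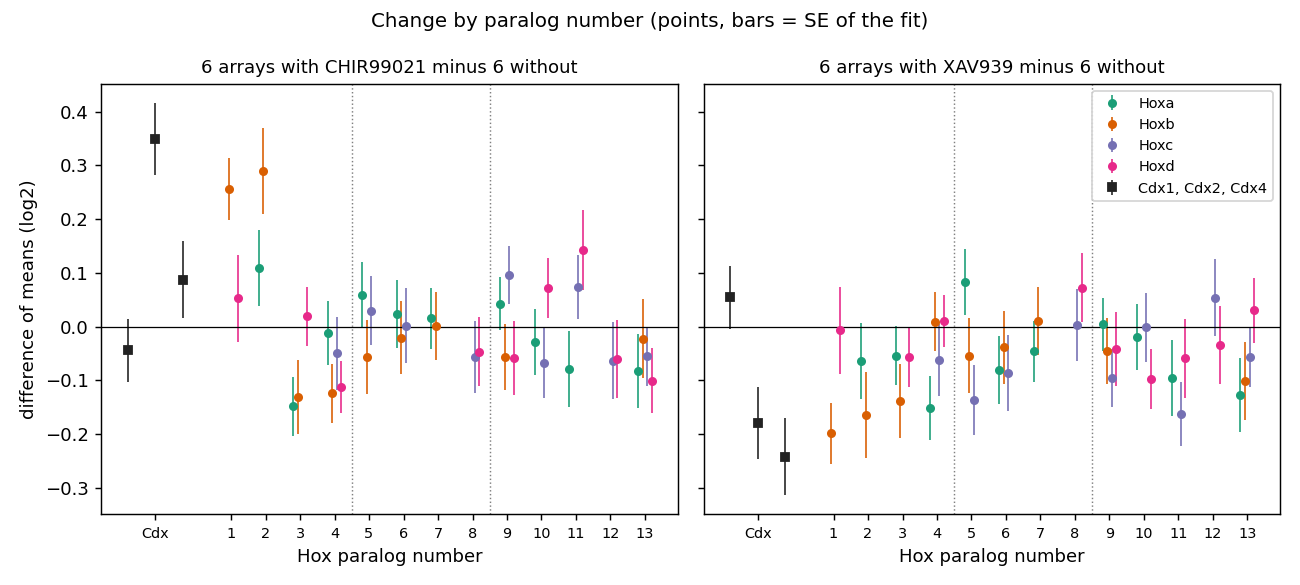
Difference (log2, point with SE of the fit) of each member against its Hox paralog number, for the 6 arrays with CHIR99021 minus the 6 without (left) and the 6 with XAV939 minus the 6 without (right), coloured by cluster, with Cdx1, Cdx2 and Cdx4 in that order as squares and dotted lines between the anterior, central and posterior classes. On the left Cdx2 (0.35), Hoxb2 (0.29) and Hoxb1 (0.26) lie above the rest, and most points lie within 0.15 of 0.

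Genes that act upstream of the Hox and Cdx genes were read from a list of 30, of which 28 were measured. The list held signals and transcription factors, enzymes of retinoic acid metabolism (Aldh1a2 and the Cyp26 genes), and Lin28a and Lin28b. For CHIR99021 against untreated, 2 of 28 were called higher and 0 lower, against 0.256% and 0.166% of all genes. Sp5, a Wnt-responsive factor of the streak, went from 4.34 ± 0.12 to 5.42 ± 0.25 (SD, n = 3), a difference of 1.08 (limma adjusted p = 0.00056). Wnt8a, a streak ligand, went from 7.90 ± 0.08 to 8.62 ± 0.03, a difference of 0.72 (limma adjusted p = 0.000179). Over all 12 arrays 3 of 28 were called higher with CHIR99021 and 3 lower, against 0.777% and 0.818% of all genes. Nkx1-2, a gene of the caudal epiblast, was the third that was higher, by 0.55 (limma adjusted p = 0.00299). Those that were lower were Fgf4 at -0.48 (limma adjusted p = 0.00248) and the retinoic acid receptors Rara at -0.22 (limma adjusted p = 0.0353) and Rarg at -0.23 (limma adjusted p = 0.0373). Tbxt and Tcf7 are not analysed here. The list's median over all 12 arrays was 0.0012, against -0.0050 for all genes.

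Of the genes that act on the clusters through chromatin, 28 of 30 Polycomb genes were measured, and 1 was called, Cbx2, a subunit that binds methylated histone H3. Its CHIR99021 difference over all 12 arrays was -0.30 (limma adjusted p = 0.0183), and the list's median was 0.02. In that comparison 1.59% of all genes were called, and 0.818% were called lower. Of 13 trithorax and H3K27 demethylase genes, 0 were called by limma in any comparison, where 0% to 1.59% of all genes were. For both compounds against untreated 6 had an unadjusted p under 0.05, all higher, with a median of 0.12. In that comparison 16.6% of all genes above background were higher at that p, with a median of 0.05. Of 8 Hox cofactors of the Pbx, Meis and Pknox families, all above background, 0 were called by limma. For CHIR99021 against untreated 2 had an unadjusted p under 0.05, both higher, as did 10.3% of all genes in either direction. For both compounds against CHIR99021, 2 were higher and 2 lower at that p, against 6.66% and 4.3% of all genes. For the interaction 2 were lower at that p and 0 higher, against 2.41% and 2.53%.

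Markers of other cells were measured beside these results, because Cdx2 also marks trophoblast and EpiSC cultures can hold feeder fibroblasts. Of 10 trophoblast markers, 5 were above background, and Plet1 at -0.38 (limma adjusted p = 0.00341) and Ascl2 at -0.26 (limma adjusted p = 0.0153) were lower with CHIR99021 over all 12 arrays. In that comparison 0.818% of all genes were called lower. By unadjusted limma p under 0.05, 4 of the 10 were lower and 1 was higher there, against 7.01% and 6.98% of all genes. The higher one was Tfap2c, at 0.23 (limma adjusted p = 0.122). Tfap2c is named to complete that count, after its values were seen. The summed level of the 10 ran from 53.5 to 54.0 untreated, 52.1 to 53.3 with CHIR99021, 53.2 to 54.2 with XAV939 and 52.0 to 53.4 with both. By limma, 0 of the 10 were called higher in any comparison, against 0.777% of all genes for CHIR99021 over all 12 arrays. Whether trophoblast cells added to the Cdx2 signal was not tested. Of 18 fibroblast markers, 4 (Col1a1, Col1a2, Thy1 and Vim) were above background and 0 were called by limma. Their sums ran from 89.6 to 91.3 untreated, 88.8 to 89.4 with CHIR99021, 88.8 to 90.0 with XAV939 and 87.8 to 89.2 with both. Of 12 mesoderm markers 4 were above background, and 0 were called by limma. Of 10 extraembryonic endoderm markers 6 were above background, and 0 were called by limma. These counts of 0 stand beside 0% to 1.59% of all genes called, depending on the comparison. Of 9 neural markers, 6 gave negative and 3 positive CHIR99021 differences over all 12 arrays. At an unadjusted limma p under 0.05, 2 of the 9 were lower and 1 was higher, against 7.01% and 6.98% of all genes. Pax6 was called lower at -0.25 (limma adjusted p = 0.0336), and Sox1, the 1 marker higher at that p, gave 0.16 (limma adjusted p = 0.190).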

How the data were processed

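The values deposited by the authors, 1 table of 35399 probes by 12 arrays, were read as log2 expression. The log2 scale was inferred from their range, 2.52 to 14.3. Per the labels' protocols, biotin-labelled RNA was hybridised to 1-colour Affymetrix arrays. Per the submitters' processing notes, Partek was used, with no version or step named; the background correction, normalization and probe summary are not given in the sources used here. No further normalization was applied. Arrays carry no read depth, and 3 arrays per group limit the precision.

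A platform annotation gave 21789 probes 1 gene symbol and 1621 several, and 11989 were not listed and so are unnamed here. Symbols were updated by gene identifier to RefSeq GRCm38.p6, and 91 probes had no match. The probe with the highest mean stood for each of 19938 genes. Hox transcripts overlap, and a probe's gene is as annotated.

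The 4 group means were estimated from all 12 arrays by limma 3.58.1 (lmFit, eBayes, two-sided, residual df 8) in R 4.3.3, with Benjamini-Hochberg adjustment over all genes in each of 8 comparisons and 1 F test, and calls at 0.05. The code was tested on simulated data. Named with values are the Cdx genes, the 2 Hox genes of highest mean per cluster, members called or above background, and the 3 of smallest p per comparison; others are said to be chosen after their values were seen, or complete a count. The members and lists were chosen with earlier results of these data known. Alternatives covered normalization, filters, probe choice, the samples fitted, a replicate block and leaving out arrays.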

Additional observations from a re-analysis of the deposited data

Results flagged for a closer look

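Hoxd4, an anterior paralog of the Hoxd cluster, was picked out because its XAV939 change went opposite ways without and with CHIR99021, and it was chosen after its values were seen. It was at 4.38, 4.38 and 4.52 untreated and at 4.33, 4.37 and 4.37 with XAV939, all lower, a difference of -0.07. It was at 4.22, 4.25 and 4.24 with CHIR99021 and at 4.31, 4.32 and 4.36 with both, all higher, a difference of 0.09. The difference between the 2 was 0.16 (SE 0.10), and it did not pass the test (adjusted p = 0.965 by limma). Hoxd4 had a mean below the background measure.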

How the results depend on the processing

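No result changed direction with a call under any alternative. Cdx2 with CHIR99021 over all 12 arrays kept its call wherever it was tested, with differences from 0.30 to 0.42. Members called for CHIR99021 against untreated numbered 0 with a filter at the background measure, where Cdx2 was not tested, 0 in a fit to the groups compared alone (Cdx2, limma adjusted p = 0.112), and 0 to 1 with each array left out. Over all 12 arrays the CHIR99021 count was 1 with the background filter (Hoxb1), 1 with the array SD as a covariate (Cdx2) and 1 without untreated replicate 3 and XAV939 replicate 2 (Cdx2), and 1 to 2 with each array left out. The last pair of alternatives was chosen after seeing the data, as was cyclic loess. The F test called 1 with the background filter (Hoxb1), 1 without that pair of arrays (Cdx2), and 0 to 2 with each array left out: neither gene without untreated replicate 2, any CHIR99021 replicate, or XAV939 replicate 1 or 3.

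With the replicate number as a block, the F test called 1 member (Cdx2), and the CHIR99021 counts stayed at 1 against untreated and 2 over all 12 arrays. Over 18 same-numbered pairs of arrays, correlations of deviations from the group means ran from -0.25 to 0.20, with a median of 0.01 and 6 above 0.1. Over 36 pairs with different numbers they ran from -0.30 to 0.33, with a median of -0.0053 and 8 above 0.1. Of the 12 arrays, 4 correlated best with their own number. Whether the numbers pair the samples was not tested.

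With the background filter, which left 6 members, the median change moved to -0.13 for XAV939 against untreated, -0.11 for both against CHIR99021 and -0.13 for XAV939 over all 12 arrays. For both against untreated it was -0.016 after quantile normalization and -0.0062 after cyclic loess, against -0.06 as deposited. For the interaction it was -0.039 with a filter at the 25th percentile, and -0.035 to 0.056 with each array left out. The filters left fewer members, and the cause of these moves was not tested.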

Other observations

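The genes that flank the Hox clusters, the microRNA genes inside them and the other ParaHox genes were read in the same fit. Of 17 flanking genes, 12 had a mean above the background measure. By limma 0 were called in any comparison, where 0% to 1.59% of all genes were. For CHIR99021 over all 12 arrays, 3 had an unadjusted p under 0.05 and were higher and 1 was lower, with a median of 0.04, where 14% of all genes had such a p. All 6 microRNA genes and all 3 ParaHox genes other than Cdx (Gsx1, Gsx2 and Pdx1) had means at or below background. None of these was called by limma, and for both compounds against untreated 1 microRNA gene and 0 ParaHox genes had an unadjusted p under 0.05, against 18.7% of all genes.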
